A study of Mus musculus with 13 samples.

Results

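The Bmp and Tgf-beta pathway genes analysed here were 48 genes taken from a fixed list of names, of 21938 protein-coding mouse genes in the GENCODE M21 annotation. They comprised 21 ligands, 10 receptors, 8 Smads, 5 extracellular modulators and 4 Id genes. Chromatin accessibility had been measured by ATAC-seq, in which the Tn5 transposase cuts and tags open DNA, and each library was deposited as a list of accessible regions. A region was given to a member when its strongest point, the summit, lay within 50 kb of the gene body, and it went to the nearest member where several were in reach. Over all 13 libraries this gave 6838 of 1360887 regions.

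The embryos were at E12.5 and of the B6CBAF1 background, and the forebrain (FB) and the distal (DFL) and proximal (PFL) parts of the forelimb were dissected from wild type and from II1TDOM 542 (mutant) embryos. In allele 542 a single copy of the II1 limb enhancer, a human HBB promoter and LacZ had recombined into T-DOM, the regulatory landscape on one side of the HoxD cluster on chromosome 2, and the mutant embryos were homozygous for it, from crosses between heterozygous adults. The labels name no other allele or treatment, and all groups shared the stage and 50000 cells per library. There were 2 replicates in each of the 6 groups, every one a separate pool of several embryos from different litters. The thirteenth library, a wild-type DFL library of an earlier study, entered none of the tests given here and was added to them only as an alternative. Pools of embryos and whole tissue pieces mixed all cell types present, and accessibility is not transcription. In such bulk samples, fewer cells with a site open and less opening per cell cannot be told apart.

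BMPs, GDFs, activins, Nodal and TGF-betas are secreted dimers that bring a type II receptor kinase together with a type I receptor kinase. The type I receptor phosphorylates a receptor Smad (Smad1, Smad5 and Smad9 for BMPs, Smad2 and Smad3 for TGF-beta, activin and Nodal), which joins Smad4 and enters the nucleus. Smad6 and Smad7 inhibit the pathway, Noggin, Chordin, Follistatin, Bmper and Twsg1 act on ligands outside the cell, and Id1 to Id4 are well known transcriptional targets of BMP signalling. In the limb, BMPs act in interdigital cell death and digit patterning, Gdf5 marks forming joints, and Bmpr1b is required in digit cartilage. In the forebrain, BMP ligands pattern the dorsal midline.

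The sequences below are the 300 bp around the summits of member regions. For each of 4 tissue classes described further on, the region with the highest mean fold enrichment is shown. The Bmper region, chosen after its values were seen, had the largest DFL to PFL difference among member regions called in all 12 libraries. All are examples chosen for their class or difference in these same data, and some had weaker regions called in another tissue. All are from the RefSeq mm10 (GRCm38.p6) genome, plus strand, and capitals mark matches to the motifs searched. The DFL-only window near Gdf10 was chr14:33908061-33908360, the PFL-only window near Bmp5 was chr9:75944763-75945062, and the FB-only window near Inhbb was chr1:119388706-119389005. The window open in limb but not forebrain was chr3:142099213-142099512 in Bmpr1b, and the Bmper window was chr9:23378661-23378960.
Gdf10 DFL-only: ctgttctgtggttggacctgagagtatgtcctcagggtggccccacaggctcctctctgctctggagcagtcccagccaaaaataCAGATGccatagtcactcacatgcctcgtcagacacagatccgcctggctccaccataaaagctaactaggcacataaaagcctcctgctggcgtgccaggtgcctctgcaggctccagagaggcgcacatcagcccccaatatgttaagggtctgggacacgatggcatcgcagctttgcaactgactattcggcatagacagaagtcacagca
Bmp5 PFL-only: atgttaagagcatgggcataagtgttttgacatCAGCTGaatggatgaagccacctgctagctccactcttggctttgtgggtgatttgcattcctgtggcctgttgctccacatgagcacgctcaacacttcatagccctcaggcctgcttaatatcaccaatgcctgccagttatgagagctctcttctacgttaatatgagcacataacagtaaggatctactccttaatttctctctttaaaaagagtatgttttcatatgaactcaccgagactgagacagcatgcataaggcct
Inhbb FB-only: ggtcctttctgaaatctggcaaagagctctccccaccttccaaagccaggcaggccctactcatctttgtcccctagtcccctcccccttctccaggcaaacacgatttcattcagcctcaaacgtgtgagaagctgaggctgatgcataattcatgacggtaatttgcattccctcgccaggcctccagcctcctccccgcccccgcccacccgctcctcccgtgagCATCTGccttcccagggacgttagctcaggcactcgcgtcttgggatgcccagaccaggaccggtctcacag
Bmpr1b limb-only: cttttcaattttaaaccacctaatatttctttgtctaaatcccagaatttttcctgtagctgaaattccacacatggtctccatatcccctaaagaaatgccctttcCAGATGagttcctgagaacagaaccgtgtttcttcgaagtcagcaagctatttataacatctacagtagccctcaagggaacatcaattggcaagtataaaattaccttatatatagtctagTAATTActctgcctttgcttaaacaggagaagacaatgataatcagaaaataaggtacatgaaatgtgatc
Bmper highest in DFL over PFL: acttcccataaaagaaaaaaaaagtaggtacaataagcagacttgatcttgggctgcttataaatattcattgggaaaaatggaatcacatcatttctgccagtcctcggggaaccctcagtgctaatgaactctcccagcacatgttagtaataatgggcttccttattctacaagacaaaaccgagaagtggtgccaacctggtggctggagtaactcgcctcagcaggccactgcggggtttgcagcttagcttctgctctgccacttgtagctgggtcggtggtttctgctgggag
The Gdf10 window held a CAGATG, the Bmp5 window a CAGCTG, the Inhbb window a CAGATG on the other strand, and the Bmpr1b window a CAGATG and a TAATTA. The Bmper window held none of the 8 motifs searched. The GC content ran from 35.7% in the Bmpr1b window to 59% in the Inhbb window.

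The 12 compared libraries held 85104 to 118339 regions, and the number of tags estimated from the local background was 40.2 to 54.5 M (mega) in DFL, 37.5 to 52.7 M in PFL and 51.4 to 70.7 M in FB. Because the lists differed in length, the 50000 strongest regions of each library were compared, ranked by −log10 q value. Merged over the 12 libraries they gave 110782 consensus regions, of which 543 belonged to members. Regions at 4 distal limb marker genes summed to 34 to 42 in DFL, 27 to 33 in PFL and 9 to 21 in FB, and 9 forebrain markers summed to 57 to 63 in FB against 32 to 48 in the limb. The 3 proximal limb markers, Meis1, Meis2 and Shox2, summed to 20 to 25 in PFL, 18 to 21 in DFL and 30 to 37 in FB. They were thus highest in FB and overlapped between PFL and DFL, so they did not mark PFL. Blood markers (15 to 16 in DFL, 13 to 15 in PFL, 20 to 23 in FB), endothelial markers (10 to 11, 9 to 12 and 7 to 9), and muscle markers (10 to 11, 13 to 17 and 11 to 13) differed between some tissues as well, while ectoderm markers overlapped (3 to 6, 2 to 7 and 5 to 6). The part of cell composition in the results was not tested.

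More member regions were among the strongest in limb than in forebrain. Of each library's 50000 strongest regions, 284 to 303 belonged to members in DFL, 279 to 297 in PFL and 241 to 266 in FB, so that no limb library overlapped an FB library. In sums over each role, which grow with its number of genes, ligands had a mean of 110 regions in DFL, 99.5 in PFL and 82 in FB. Receptors had means of 85.8, 89 and 75.3 regions, Smads 41, 42.5 and 33.5, extracellular modulators 29.3, 32 and 31, and Id genes 28.3, 25.5 and 29. The median member had 4.67 such regions per library against 4.33 over the 19772 protein-coding genes with a region, and the median gene body was 29618.5 bp for members and 19595.5 bp for all. Bmpr1b, a type I BMP receptor, had the most consensus regions, 50, and Smad2 and Smad4 the fewest, 3 each.

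**Figure D1:**
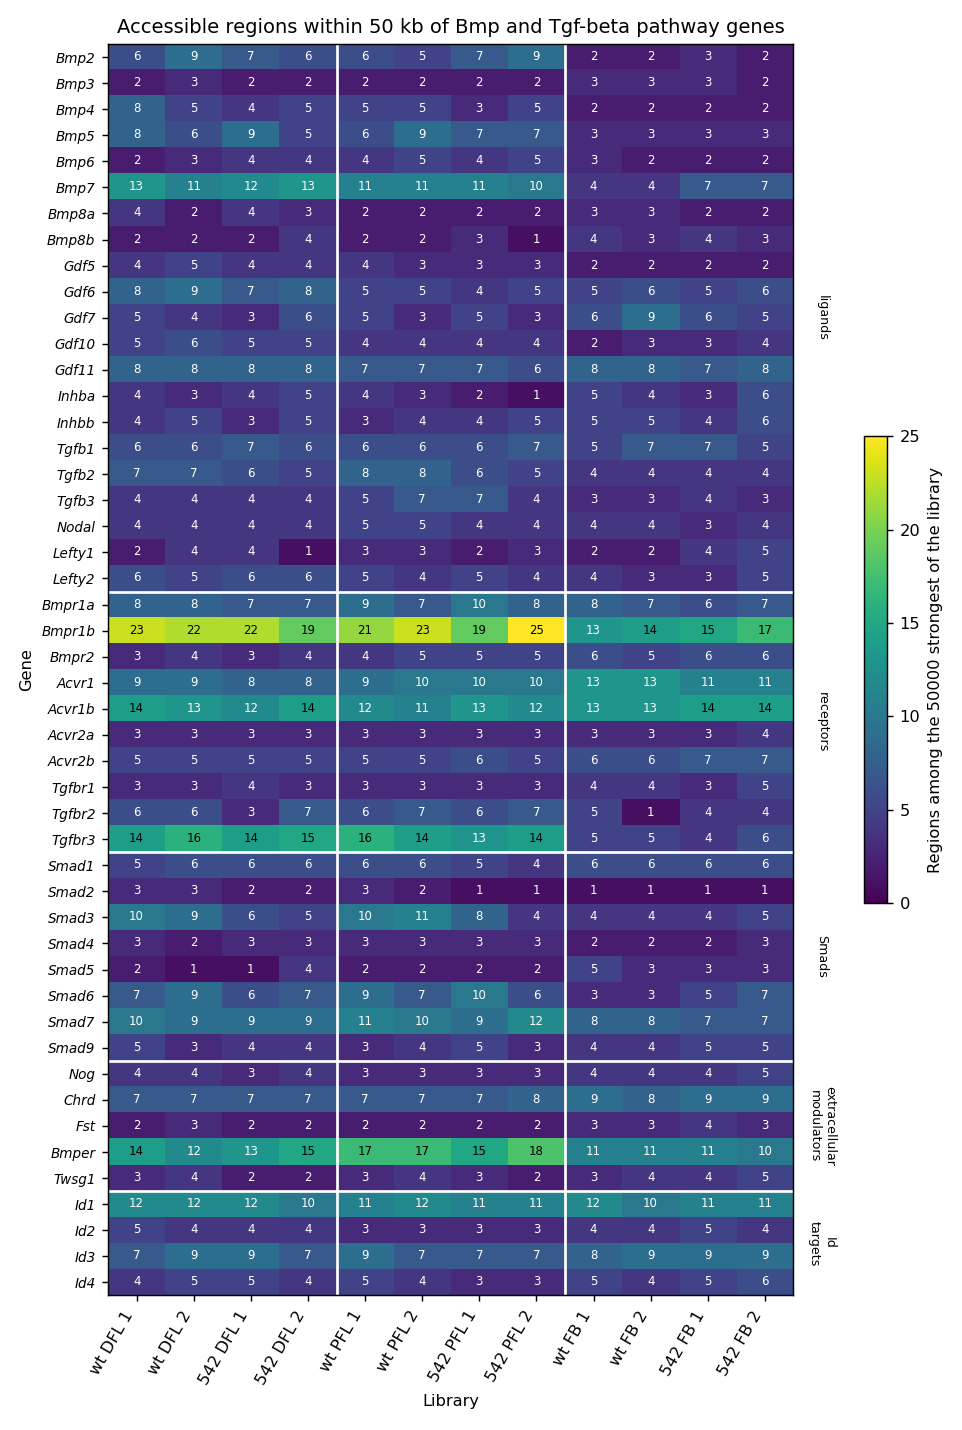
Number of regions among each library's 50000 strongest that were given to each member gene, with members in rows grouped by role and the 12 libraries in columns grouped by tissue, colour and printed number giving the count. Tgfbr3 and Bmpr1b showed higher counts in all 8 limb libraries than in the 4 FB libraries, and Acvr1 the reverse.

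The count of regions per gene was then compared between tissues, 4 libraries against 4, and a gene was counted where the libraries of both tissues did not overlap. DFL was above FB at 13 of 48 members (10.2% of the 19772 genes), and PFL was above FB at 12 (10.6%). FB was above DFL at 4 members (11.2%) and above PFL at 5 (11.4%). DFL was above PFL at 4 members (2.8%) and PFL above DFL at 0 (2.87%). Of the 44 other genes of the pathway, 4 were higher in DFL than in FB and 3 lower, 8 were higher in PFL than in FB and 5 lower, and 5 and 6 differed between DFL and PFL. In an exact two-sided permutation test each such gene reached p = 0.0286, the smallest that 4 against 4 libraries allow, and after Benjamini-Hochberg adjustment over all genes none passed, the smallest adjusted p being 0.504 for DFL against PFL, 0.133 for DFL against FB and 0.13 for PFL against FB. Unadjusted, 1120, 4232 and 4356 genes had p under 0.05.

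Values in each set of 4 libraries are given below as wild type 1, wild type 2, 542 replicate 1 and 542 replicate 2. Among the ligands, Bmp7 had 13, 11, 12 and 13 regions in DFL, 11, 11, 11 and 10 in PFL, against 4, 4, 7 and 7 in FB. Bmp2, which acts in digit and cartilage development, had 6, 9, 7 and 6 regions in DFL, 6, 5, 7 and 9 in PFL, against 2, 2, 3 and 2 in FB. Bmp5, a ligand of skeletal condensations, had 8, 6, 9 and 5 in DFL, 6, 9, 7 and 7 in PFL, against 3 in every FB library. For these 3 ligands each limb library lay above each FB library. Bmp4 and Gdf5 are named with their values already in view. Bmp4, an apical ridge and interdigit ligand, had 8, 5, 4 and 5 regions in DFL, 5, 5, 3 and 5 in PFL, against 2 in every FB library. Gdf5, the joint ligand, had 4, 5, 4 and 4 in DFL, 4, 3, 3 and 3 in PFL, against 2 in every FB library. Both were above forebrain in the 8 limb libraries, and their DFL and PFL counts overlapped.

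The 4 members with more regions in every DFL than in every PFL library were Gdf6, Gdf10, Gdf11 and Id2. Gdf6, which acts with Gdf5 in joints, had 8, 9, 7 and 8 regions in DFL against 5, 5, 4 and 5 in PFL and 5, 6, 5 and 6 in FB. Gdf10 (BMP3B) had 5, 6, 5 and 5 in DFL, 4 in each PFL library, and 2, 3, 3 and 4 in FB. Gdf11, a TGF-beta family ligand of axial patterning, had 8 in each DFL library against 7, 7, 7 and 6 in PFL, and 8, 8, 7 and 8 in FB. Id2, an inhibitor of bHLH factors, had 5, 4, 4 and 4 in DFL, 3 in each PFL library, and 4, 4, 5 and 4 in FB. For Gdf10, Gdf11 and Id2 the gap between the nearest DFL and PFL libraries was 1 region. In the full deposited lists DFL and PFL overlapped at all 4 genes. Gdf6 had 12, 13, 10 and 11 regions there in DFL against 13, 13, 9 and 5 in PFL.

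The receptors moved in both directions. Tgfbr3 (betaglycan), a co-receptor that presents TGF-beta2 and binds inhibin, had 14, 16, 14 and 15 regions in DFL, 16, 14, 13 and 14 in PFL, against 5, 5, 4 and 6 in FB, the largest difference of means among members in both limb to forebrain comparisons. Bmpr1b had 23, 22, 22 and 19 in DFL, 21, 23, 19 and 25 in PFL, against 13, 14, 15 and 17 in FB. Acvr1 (ALK2), a type I receptor for BMPs, had 9, 9, 8 and 8 in DFL, 9, 10, 10 and 10 in PFL, against 13, 13, 11 and 11 in FB. Thus Tgfbr3 and Bmpr1b were higher in limb and Acvr1 in forebrain without overlap. Bmpr2, the BMP type II receptor, had 3, 4, 3 and 4 in DFL against 6, 5, 6 and 6 in FB, with PFL at 4, 5, 5 and 5. Acvr2b, an activin type II receptor, had 5 in each DFL library, 5, 5, 6 and 5 in PFL, against 6, 6, 7 and 7 in FB. Bmpr2 and Acvr2b were above DFL in forebrain but overlapped PFL, and in the full lists they overlapped DFL as well.

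Among the extracellular modulators, Bmper, a secreted BMP-binding protein, had 14, 12, 13 and 15 regions in DFL, 17, 17, 15 and 18 in PFL, against 11, 11, 11 and 10 in FB. Chrd, the BMP antagonist Chordin, had 7 in each DFL library, 7, 7, 7 and 8 in PFL, against 9, 8, 9 and 9 in FB. Bmper was thus higher in limb, and Chrd higher in forebrain than in DFL only. Smad5, Nog, Fst and Id2 were, with Acvr1, the 5 members above PFL in forebrain. Smad5 had 2 regions in each PFL library and 5, 3, 3 and 3 in FB. Nog (Noggin) had 3 in each PFL library and 4, 4, 4 and 5 in FB, and Fst (Follistatin) 2 in each PFL library and 3, 3, 4 and 3 in FB. These differences were of a few regions, and the DFL counts of Smad5, 2, 1, 1 and 4, overlapped both. In the full deposited lists the FB counts of Chrd, Smad5, Nog, Fst and Id2 overlapped those of both limb parts.

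The consensus regions were next classed by the tissues in which they were among the 50000 strongest in all 4 libraries and in none of the others. Of the 543 member regions, 12 were DFL-only (1.92% of the 110782 consensus regions, 2.21% of member regions) and 16 were PFL-only (1.81% and 2.95%). The limb-only class, present in all 8 limb libraries and no FB library, held 34 (4.82% and 6.26%), and the FB-only class 29 (8.77% and 5.34%). There were 123 regions in all tissues (17.4% and 22.7%), 3 in DFL and FB (0.394% and 0.552%), 0 in PFL and FB (0.108%), and 326 that fell in no class. A class names the strongest regions only. In the full deposited lists, 9 of the 12 DFL-only, 15 of the 16 PFL-only, 14 of the 34 limb-only and 16 of the 29 FB-only regions had a weaker region in another tissue, which left 3, 1, 20 and 13 with none. The 44 other pathway genes, with 424 consensus regions, had 5 DFL-only, 8 PFL-only, 13 limb-only, 19 FB-only and 122 all-tissue regions. With pairs of tissues alone, 18 member regions were in every DFL and no PFL library (2.54% of all consensus regions) and 17 the reverse (2.02%), 62 were in DFL and not FB (9.24%) and 30 the reverse (9.76%), and 58 were in PFL and not FB (9.47%) and 39 the reverse (10.5%).

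**Figure D2:**
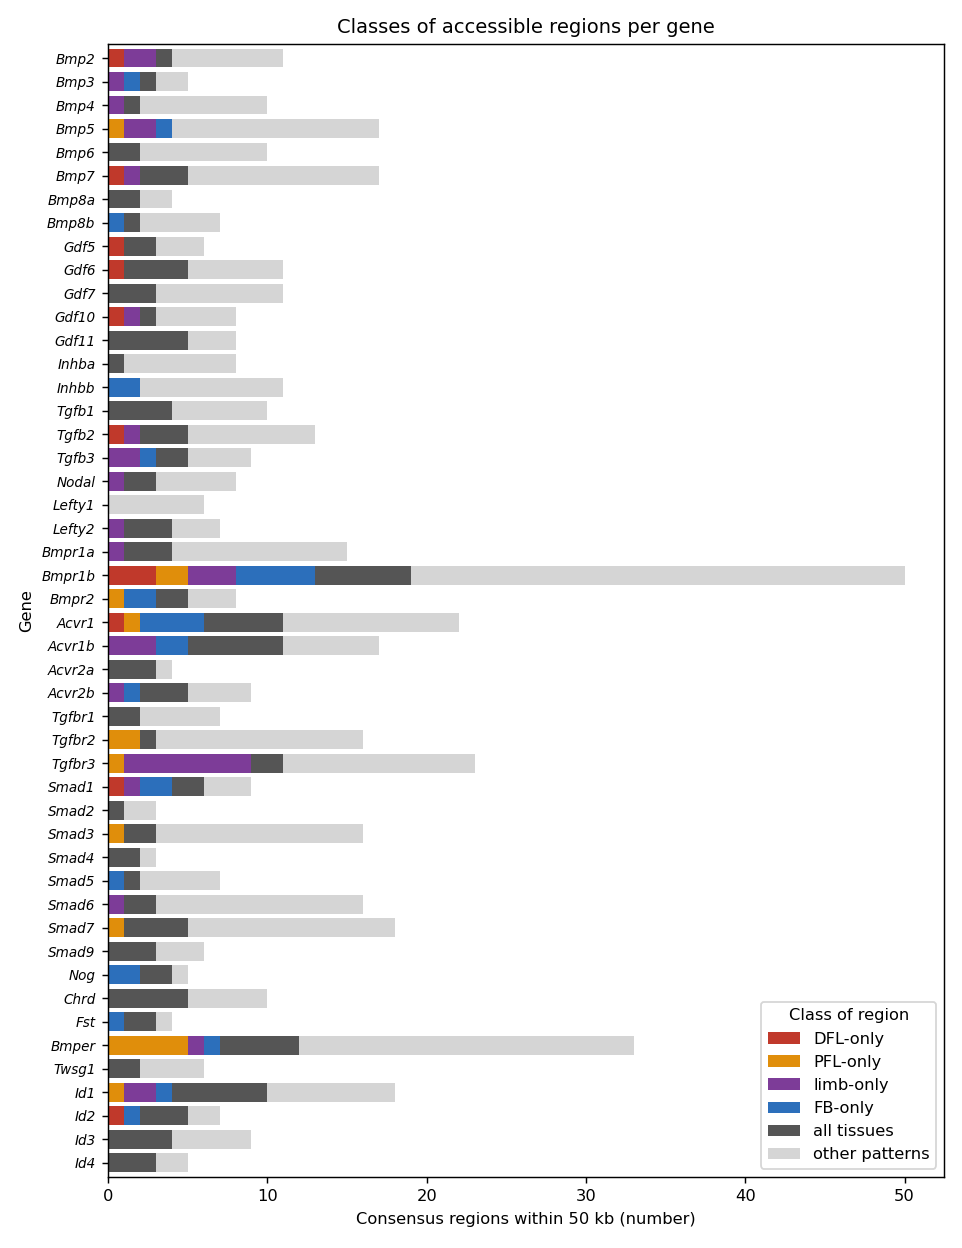
Number of consensus regions of each member gene, in stacked bars coloured by tissue class, with the genes ordered by role. Tgfbr3 held 8 of the 34 limb-only regions, Bmper 5 of the 16 PFL-only regions and Bmpr1b regions of every class shown.

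The classes were counted by role, with no test, against 197 consensus regions of ligands, 171 of receptors, 78 of Smads, 58 of extracellular modulators and 39 of Id genes. Ligands held 6 of the 12 DFL-only regions, receptors 4, Smads 1 and Id genes 1. Receptors held 7 of the 16 PFL-only regions and extracellular modulators 5, all 5 of them at Bmper. Receptors also held 14 of the 29 FB-only and 16 of the 34 limb-only regions, and ligands 6 and 13. Tgfbr3 alone held 8 limb-only regions among its 23, and Acvr1 4 FB-only regions among its 22. Bmpr1b held 3 DFL-only, 2 PFL-only, 5 FB-only, 3 limb-only and 6 all-tissue regions among its 50. At least 1 all-tissue region was found at 45 of the 48 genes, the exceptions being Bmp5, Inhbb and Lefty1.

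The strongest DFL-only region lay between genes near Gdf10 (chr14:33907766-33908610, at -15376 bp from the start, negative meaning upstream). Its fold enrichment over local background was 11.1, 9.38, 12 and 10.1 in DFL, 3.22, 3.32, no region and 3.4 in PFL, and no region was called in FB. An intronic region of Acvr1 (chr2:58435094-58436234) had folds of 8.89, 11.7, 8.85 and 9.85 in DFL, weak regions of 3.22 and 2.86 in the wild-type PFL libraries, and none in the others. An intronic region of Bmpr1b (chr3:142042823-142043438) had 8.79, 7.7, 6.45 and 9.06 in DFL and no region in any of the other 8 libraries. Among these the Bmpr1b region was thus the one seen in DFL alone. An intergenic region at Tgfb2 (chr1:186585664-186586110, 64030 bp downstream of the start) had 7.23, 7.18, 7.01 and 8.87, with PFL folds of 3.06, 3.62, no region and 3.99. An intergenic region upstream of Gdf6 (chr4:9836683-9837657, -7418 bp) had 6.09, 6.76, 6.96 and 7.37, with 3.14 and 2.71 in wild-type PFL.

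The strongest PFL-only region lay in an intron of the non-coding gene Gm26903 beyond Bmp5 (chr9:75944324-75945238, 116891 bp from the Bmp5 start). Its folds were 13.2, 11.3, 11.8 and 8.59 in PFL, 4.1 and 2.45 in wild-type DFL, and 2.45 in FB wild type 1. An intron of Bmpr1b (chr3:141857004-141857741) had folds of 10.9, 9.06, 6.34 and 8.65 in PFL and 3.22 in DFL wild type 1. The same 2 genes therefore carried both the strongest PFL-only and, as described next, strong limb-only regions. An intron of Tgfbr2, the TGF-beta type II receptor (chr9:116150678-116151340), had 7.46, 8.77, 6.9 and 4.86 in PFL, with 3.52, 3.5 and 3.32 in 3 DFL libraries. An intron of Tgfbr3 (chr5:107276197-107277329) had 6.89, 5.26, 8.12 and 7.19 in PFL, and 4.54 and 4.73 in wild-type DFL. An intergenic region beyond Bmpr2, with Fam117b as its nearest coding gene (chr1:59898846-59899708), had 6.11, 5.59, 5.54 and 6.59 in PFL, and 3.5 in DFL wild type 2.

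The 5 strongest limb-only regions were at Bmpr1b, Tgfbr3, Bmp5 and Bmp4, and no region was called in any FB library at any of them. In the intron of Bmpr1b whose sequence is printed above (chr3:142098977-142099773) the folds were 8.12, 9.74, 11.3 and 9.51 in DFL and 12.9, 14.7, 12.7 and 11.7 in PFL. One intronic region of Tgfbr3 (chr5:107157214-107157945) had 10.5, 17.3, 13.5 and 10.2 in DFL and 9.64, 8.59, 10.4 and 9.15 in PFL. The other (chr5:107221822-107223100) had 12.7, 11.3, 12.9 and 12.46 in DFL against 8.19, 8.46, 9.45 and 7.24 in PFL, so at this second region every DFL library lay above every PFL library. An intron of Bmp5 (chr9:75870059-75871196) had 11.4, 9.94, 10.1 and 16.4 in DFL and 9.75, 9.02, 9.17 and 12.8 in PFL. The Bmp4 region (chr14:46436372-46437304, -46206 bp, in an exon of the non-coding gene Gm15221) had 9.9, 10.7, 11.2 and 10 in DFL and 9.82, 13.9, 11.8 and 10.5 in PFL. At these last 2 regions DFL and PFL overlapped.

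The strongest FB-only region of all members lay downstream of Inhbb, the activin beta-B subunit (chr1:119388587-119389385, 33392 bp from the start). Its folds were 19, 18.2, 17.4 and 19.4 in FB, and weak regions of 2.6 and 3.57 in wild-type DFL and 3.17 in PFL wild type 2 were present. An intron of Bmpr1b (chr3:141952707-141953410) had 12.2, 13.4, 15.1 and 12.53, an intergenic region beyond Bmper (chr9:23497095-23498195) had 12, 12.1, 13.6 and 12.8, and an intron of Bmpr2 (chr1:59788681-59789567) had folds from 11 to 13.3. These 3 had no region in any limb library. An intergenic region upstream of Id2 (chr12:25124225-25125179, -27663 bp) had 11.2, 11.4, 12.2 and 11.3 in FB and weak regions of 2.4 to 4.11 in 6 of the 8 limb libraries.

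**Figure D3:**
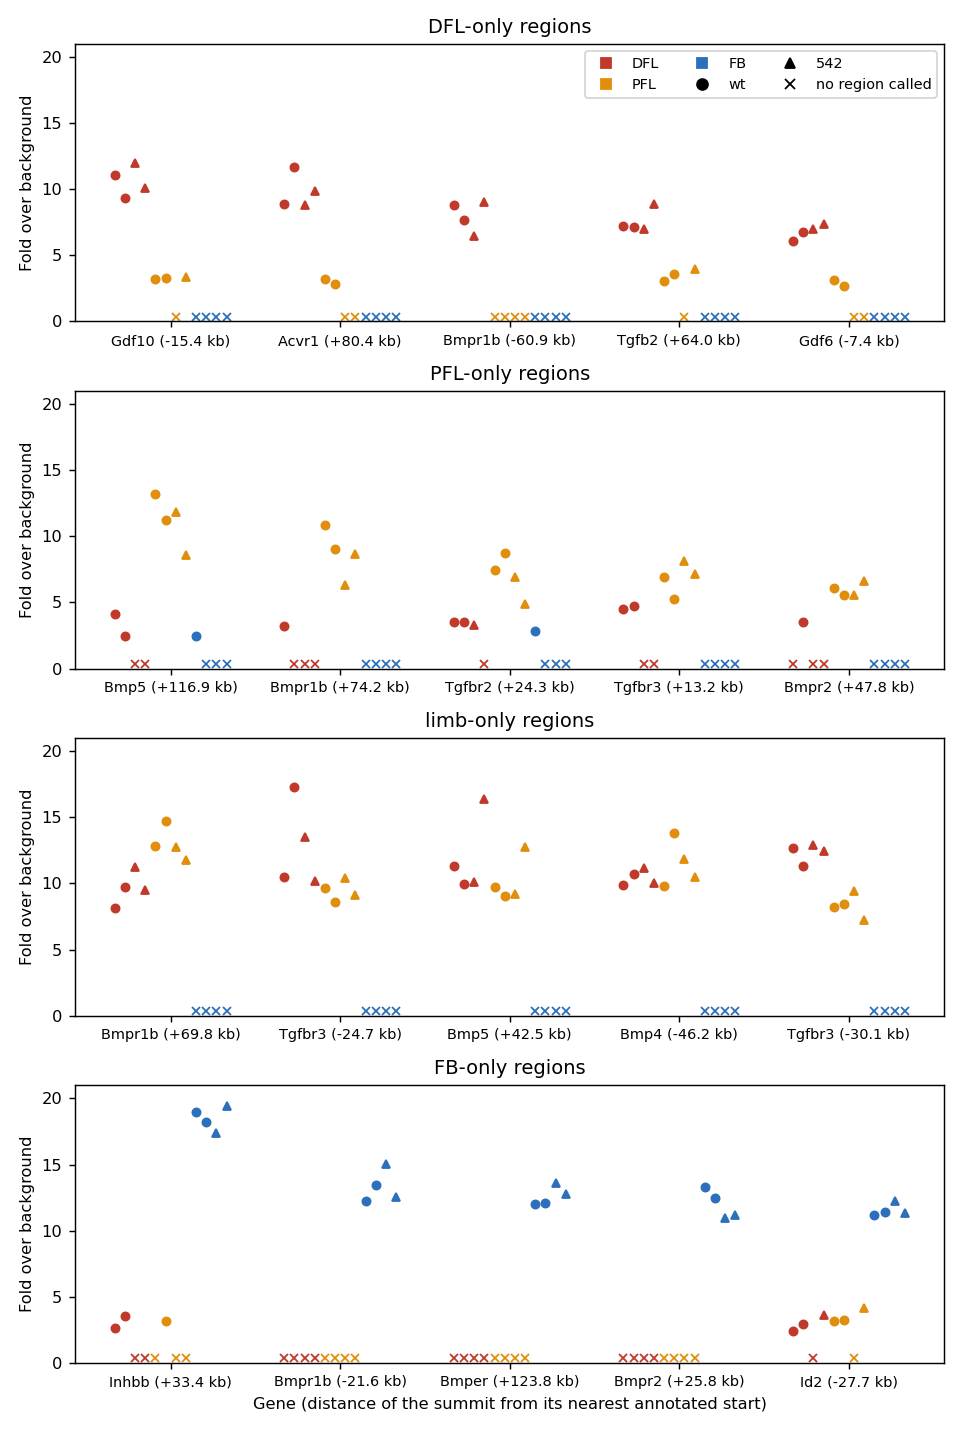
Fold enrichment over local background in each of the 12 libraries for the 5 strongest member regions of the DFL-only, PFL-only, limb-only and FB-only classes, with a cross where no region was called. The FB-only Inhbb region reached 17.4 to 19.4 in FB, and the 5 limb-only regions had no region in any FB library.

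The earlier wild-type DFL library, which played no part in the classes, was used as a check. All 12 DFL-only member regions were among its 50000 strongest, against 80.4% of all DFL-only regions, as were 33 of the 34 limb-only (94.4% of all) and 121 of the 123 all-tissue regions (97.7%). Of the PFL-only member regions 4 of 16 were among them (13.6% of all), and of the FB-only 3 of 29 (1.75%). Within its complete list of 131743 regions, 14 of the 16 PFL-only and 13 of the 29 FB-only member regions had a region of some strength, against 67.2% and 22.4% of all such regions. This library was deeper, with an estimated 78 M tags.

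By position, 282 of the 543 member regions had their summit in an intron, 195 between genes, 47 in a UTR, 5 in a coding exon and 14 in other exons. The nearest coding gene was the member for 387 of them (71.3%), so the rest may belong to neighbouring genes as well. The start of a member, taken as within 500 bp of one of its annotated transcript starts, was overlapped by 57 regions in 46 genes, all but Bmp8b and Lefty2, and for 43 of these genes such a region was called in all 12 libraries. The other 3 were Gdf5, with a start region in at most 7 libraries, Lefty1 in 10 and Nodal in 11. None of the DFL-only, PFL-only and limb-only regions was a start region, and 1 of the FB-only regions was. The median distance from the nearest own start was 12684 bp for the all-tissue regions, 37039.5 bp for DFL-only, 28866.5 bp for PFL-only, 28339 bp for limb-only and 25059 bp for FB-only regions.

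**Figure D4:**
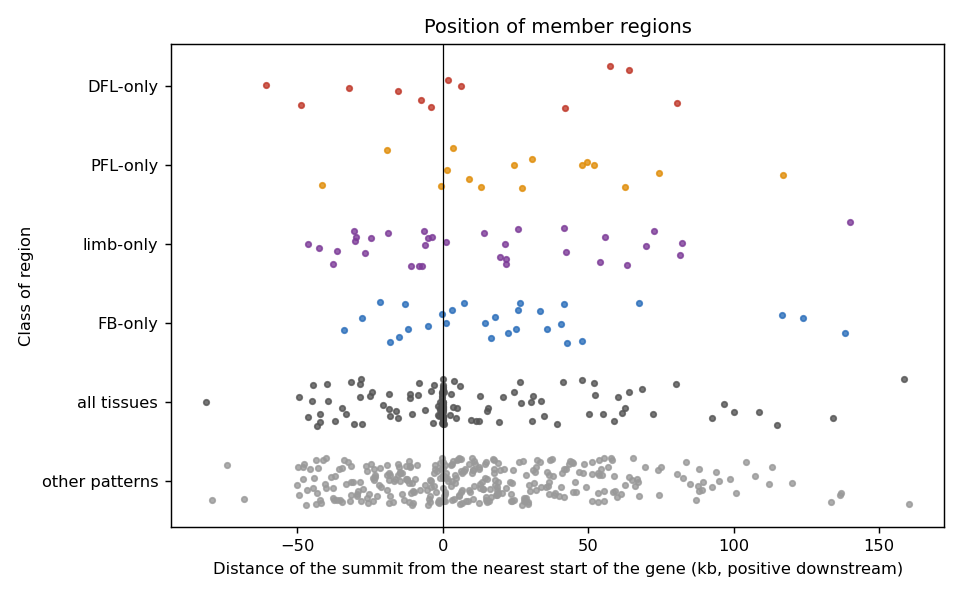
Distance in kb of the summit from the nearest annotated start of its own gene for the member regions of each tissue class, one point per region, negative values upstream. The all-tissue regions include the starts themselves, and no DFL-only, PFL-only or limb-only region was a start region.

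Short motifs were counted on both strands in the 300 bp at each summit, as a description of the letters only. The homeodomain core TAATTA was in 4 of the 12 DFL-only (22.8% of all DFL-only regions), 1 of the 16 PFL-only (4.5%), 4 of the 34 limb-only (9.59%), 9 of the 29 FB-only (32.5%) and 0 of the 123 all-tissue member regions (3.63%). The E-box CAGCTG was in 1 of 12 DFL-only (18.1%), 6 of 16 PFL-only (37.9%), 16 of 34 limb-only (30%) and 7 of 29 FB-only regions (26.7%), and CAGATG in 2 (24.1%), 6 (38.9%), 12 (37.6%) and 8 (28.7%). The HOX13-type CAATAAA was in 2 of 12 DFL-only (19.6%), 0 of 16 PFL-only (6.8%), 4 of 34 limb-only (11.2%) and 1 of 29 FB-only regions (5.24%), and TCGTAAA in 1 (2.91%), 0 (0.7%), 1 (2.06%) and 0 (0.463%) of the same classes. The MEIS and TGIF-type TGACAG was in 2 of 12 DFL-only (13.9%), 4 of 16 PFL-only (26.6%), 3 of 34 limb-only (19.3%) and 7 of 29 FB-only regions (30%). Of the Smad-type motifs, GTCTAGAC was in 5 of all 543 member regions (0.347% of all consensus regions) and GGCGCC in 59 of 543 (6.41%), 40 of them among the 123 all-tissue regions (21.5% of all such regions), whose median GC content was 65.3% for members and 60.7% for all.

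Regions called in all 12 libraries were compared quantitatively, since a fold exists in each, with limma on quantile-normalised log2 fold enrichment and Benjamini-Hochberg adjustment over 28265 regions. Of the 543 member regions 179 were in this set. DFL was higher than FB at 28 member regions (16.1% of all tested) and lower at 28 (15.9%). PFL was higher than FB at 35 (16.7%) and lower at 29 (16.3%), and DFL was higher than PFL at 4 (4.41%) and lower at 5 (3.22%). The median log2 difference over the member regions was -0.03 for DFL minus FB, -0.00 for PFL minus FB and -0.02 for DFL minus PFL, against -0.01, -0.00 and -0.01 over all. The balance of higher and lower calls depended on the scaling. With median centring the limb to forebrain calls were 34 higher and 21 lower for DFL and 43 and 21 for PFL. Of all tested regions, 33% and 36.1% were then called in either direction. Without normalisation the limb to forebrain calls were 25 and 54 for DFL and 27 and 60 for PFL, against 42.8% and 46.9% of all regions. The median of all regions then moved to -0.13 and -0.16. DFL against PFL gave 8 higher and 3 lower, with 6.86% of all regions called. Changes are therefore relative to the median region. The 167 tested regions of the 44 other pathway genes gave 26 higher and 19 lower in DFL than in FB, 25 and 25 in PFL, and 5 and 6 between DFL and PFL.

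By role, to be read against the shares of all tested regions just given, 10 of 61 ligand regions were higher in DFL than in FB and 6 lower, and 12 were higher and 6 lower in PFL. Of 50 receptor regions 8 were higher and 10 lower in DFL, and 8 and 9 in PFL. Of 28 Smad regions 7 were higher and 4 lower in DFL, and 8 and 2 in PFL. Of 17 regions of extracellular modulators 1 was higher and 4 lower in DFL, and 4 and 6 in PFL, and of 23 regions of Id genes 2 were higher and 4 lower in DFL, and 3 and 6 in PFL.

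**Figure D5:**
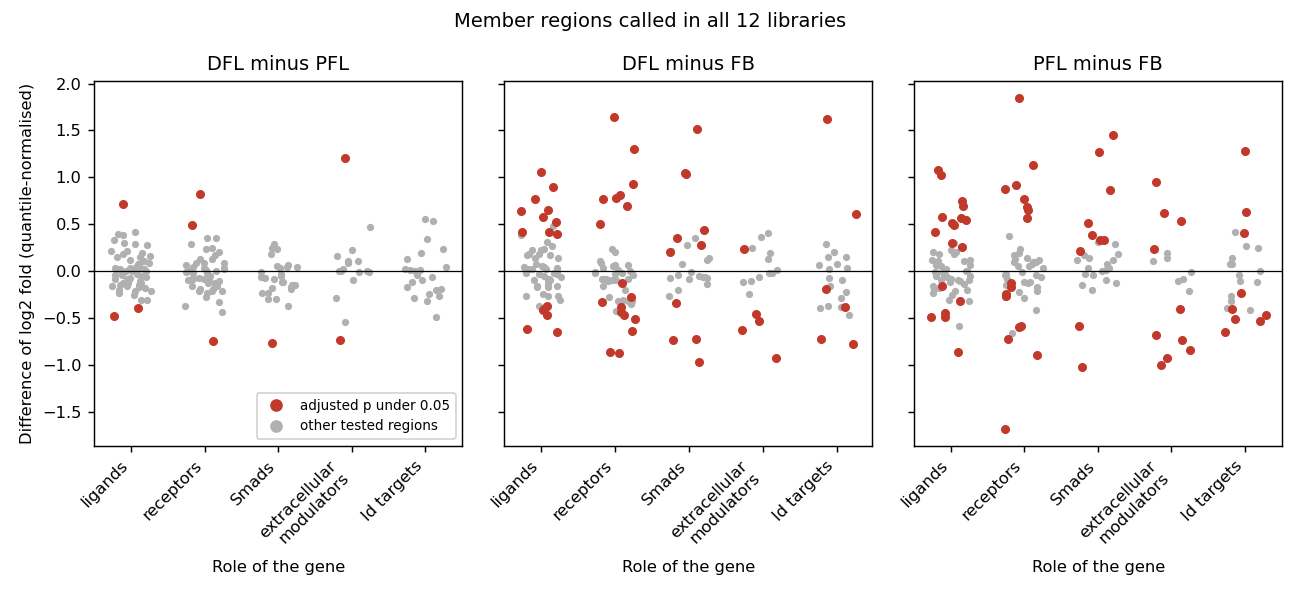
Log2 differences of fold enrichment for the 179 member regions called in all 12 libraries, in panels for the 3 tissue contrasts and by role, one point per region, red where the adjusted p from limma was under 0.05. DFL minus PFL had 9 red points, against 56 for DFL minus FB and 64 for PFL minus FB.

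Between DFL and PFL, the largest difference among member regions called in all 12 libraries was at the intronic Bmper region printed above (chr9:23378108-23379318). Its ranking leaves out regions without a call in some library, for which no difference was computed. Its folds were 11.1, 9.37, 11.6 and 10.6 in DFL, 4.46, 4.57, 4.32 and 5.2 in PFL, against 10, 9.24, 8.79 and 8.63 in FB. Every PFL library lay below every DFL and FB library, with a log2 difference of 1.21 for DFL minus PFL (SE 0.13, limma adjusted p = 0.000367) and -0.85 for PFL minus FB (adjusted p = 0.00028). Bmper thus carried 5 PFL-only regions and, at this intron, a region lowest in PFL. An intron of Tgfbr3 (chr5:107251611-107252636) had folds of 6.01, 6.3, 5.53 and 7.55 in DFL, 2.97, 4.07, 2.97 and 4.39 in PFL, against 12.4, 12.9, 11.1 and 13.7 in FB. The 3 tissues did not overlap here, with DFL minus PFL at 0.82 (SE 0.18, limma adjusted p = 0.0157) and PFL minus FB at -1.69 (adjusted p = 1.49e-05), a direction opposite to that of the 8 limb-only regions of the same gene. A region of Gdf11 in an intron of Sarnp (chr10:128845315-128846522) had 5.83, 5.47, 8.47 and 6.97 in DFL and 3.86, 4.52, 3.17 and 4.39 in PFL, a difference of 0.72 (SE 0.16, limma adjusted p = 0.0157). In FB it had 5.95, 5.67, 5.32 and 6.15, with PFL minus FB at -0.49 (limma adjusted p = 0.0306). Mean folds in DFL and PFL were 5.65 and 4.19 in wild type and 7.72 and 3.78 in 542. The interaction with genotype did not pass there (limma adjusted p = 0.633).

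The 5 regions lower in DFL than in PFL were at Smad1, Bmpr1a, Chrd and, with 2 of them, Gdf6. An intron of Bmpr1a (chr14:34453316-34454525) had folds of 5.71, 10.8, 4.24 and 3.78 in DFL and 8.91, 8.2, 8.1 and 9.76 in PFL, a difference of -0.74 (SE 0.19, limma adjusted p = 0.0266), but DFL wild type 2 lay above all PFL libraries and within wild type the difference was -0.22. The region at the start of Chrd (chr16:20732071-20733817, in an intron of Thpo) had 6.97, 8.57, 3.64 and 4.79 in DFL and 10.2, 7.65, 9.54 and 8.17 in PFL, a difference of -0.74 (SE 0.15, limma adjusted p = 0.00875). Within wild type it was -0.28 (adjusted p = 0.512), so both differences were smaller in wild type alone than with the 542 libraries. The 2 Gdf6 regions, named with their values in view, went against its higher DFL count of strong regions. The start of Gdf6 (chr4:9843605-9845015) had 6.61, 5.56, 5.14 and 5.39 in DFL against 6.45, 7.31, 8.87 and 6.98 in PFL, a difference of -0.48 (SE 0.14, limma adjusted p = 0.0485), with DFL wild type 1 inside the PFL range. Its coding exon (chr4:9858998-9860402) had 7.96, 8.03, 9.65 and 8.97 in DFL and 12.0, 9.51, 10.6 and 11.5 in PFL, a difference of -0.39 (SE 0.11, limma adjusted p = 0.0364).

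Against forebrain, the largest differences with limb higher among regions called in all 12 libraries were near receptors, an Id gene and an inhibitory Smad. A region within 50 kb of Bmpr1b, in an intron of Unc5c (chr3:141811127-141811762), had folds of 8.35, 15.1, 7.74 and 8.87 in DFL, 12.2, 10.1, 9.5 and 11.2 in PFL, against 2.99, 2.26, 3.17 and 3.95 in FB. Its log2 difference was 1.64 for DFL minus FB (SE 0.19, limma adjusted p = 2.28e-05) and 1.85 for PFL minus FB (adjusted p = 8.59e-06). A region upstream of Id1, in a UTR of H13 (chr2:152705720-152706662), had 8.01, 8.22, 7.09 and 7.66 in DFL, 6.09, 5.29, 6.28 and 6.1 in PFL, against 1.95, 2.48, 2.36 and 3.01 in FB, with differences of 1.62 (limma adjusted p = 2.44e-06) and 1.28 (adjusted p = 1.68e-05). An intron of Smad6, which inhibits BMP type I receptors (chr9:63980049-63981229), had 11.2, 11.1, 10.9 and 9.87 in DFL, 11, 9.55, 10.2 and 9.32 in PFL, against 3.04, 3.83, 3.29 and 5.11 in FB. Its differences were 1.51 (SE 0.14, limma adjusted p = 4.09e-06) and 1.45 (adjusted p = 5.84e-06), and at all 3 regions the limb and forebrain libraries did not overlap.

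The largest differences in the other direction among the same regions, besides Tgfbr3 and Smad1, were at Chrd, Bmpr1a, Smad7 and Fst. A region upstream of Chrd in an intron of Fam131a (chr16:20695711-20696501) had folds of 4.45, 4.32, 3.75 and 4.49 in DFL and 7.78, 8.82, 8.18 and 8.68 in FB, a difference of -0.93 (SE 0.15, limma adjusted p = 0.000315). The intron of Bmpr1a described above had 11, 8.9, 13.2 and 11.1 in FB and a DFL minus FB difference of -0.87 (limma adjusted p = 0.00278). A region beyond Smad7, which blocks TGF-beta receptors, in a UTR of Ctif (chr18:75433859-75435429) had 3.88, 5.08, 3.91 and 4.71 in PFL and 9.92, 9.72, 9.83 and 9.55 in FB, a difference of -1.02 (SE 0.16, limma adjusted p = 0.000277). A region just upstream of Fst (chr13:114460120-114460965, -1806 bp) had 3.11, 3.54, 3.58 and 4.14 in PFL, 4.49, 4.81, 6.35 and 4.92 in DFL and 8.16, 7.83, 7.29 and 7.54 in FB, with a PFL minus FB difference of -1.003 (SE 0.15, limma adjusted p = 0.000163). At the Smad7 and Fst regions every PFL library lay below every FB library.

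Regions at member starts were also counted on their own. Of 47 tested start regions 9 were higher and 9 lower in DFL than in FB, 12 were higher and 4 lower in PFL than in FB, and 0 were higher and 3 lower in DFL than in PFL. Over all 13518 tested regions at a start of a protein-coding gene, 12.4% were higher and 11.1% lower in DFL than in FB, 14.2% and 9.97% in PFL, and 1.31% and 1.51% between DFL and PFL. Away from their own starts the corresponding counts over 132 member regions were 19 and 19, 23 and 25, and 4 and 2. Over all 14747 tested regions away from every protein-coding start, 19.5% were higher and 20.4% lower in DFL than in FB. The shares were 18.9% and 22.1% in PFL against FB, and 7.25% and 4.78% between DFL and PFL. Some of the 132 lie at starts of other genes, so the sets differ in position. The start regions named in the next sentences are named with their values already in view, except the internal Smad1 start with PFL and FB differences and the Chrd start.

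Smad1 and Bmpr1b, both of which have several annotated starts, showed start regions that differed in opposite directions between tissues. At the upstream start of Smad1, the receptor Smad for BMPs (chr8:79398000-79399825), the folds were 13.4, 16.4, 16.2 and 15.4 in DFL, 12, 11.7, 13.8 and 13.3 in PFL, against 13.3, 12.9, 14.3 and 12.7 in FB, a DFL minus FB difference of 0.36 (SE 0.075, limma adjusted p = 0.00267). At an internal start (chr8:79355441-79356523, the summit 837 bp downstream of that start) they were 3.5, 3.93, 5.03 and 3.58 in DFL, 5.75, 6.67, 6.08 and 6.46 in PFL, against 7.74, 6.96, 9.87 and 7.68 in FB. DFL lay below both other tissues in every library, by -0.77 against PFL (SE 0.17, limma adjusted p = 0.0126) and -0.97 against FB (adjusted p = 0.000585). At another internal start of Smad1 (chr8:79349741-79350785, -119 bp), which was the only FB-only start region, the folds were 10.8, 10.6, 10.9 and 10.9 in FB and no region was called in any of the 8 limb libraries. The first Smad1 start was thus somewhat higher in DFL than in FB, although DFL wild type 1 lay within the FB range. PFL minus FB there was 0.12 (limma adjusted p = 0.245). Both internal starts were higher in FB than in DFL.

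At one start of Bmpr1b (chr3:142168419-142169771) the folds were 11.6, 11.6, 10.4 and 11 in DFL, 13.8, 11.9, 11.2 and 11.4 in PFL, against 15, 16.1, 13.7 and 17.2 in FB, a DFL minus FB difference of -0.33 (SE 0.083, limma adjusted p = 0.00824). At an internal start (chr3:141981586-141982531) they were 7.91, 9.43, 8.11 and 4.53 in DFL, 6.35, 7.09, 6.73 and 4.01 in PFL, against 4.09, 4.82, 3.55 and 3.85 in FB, with differences of 0.81 for DFL (limma adjusted p = 0.00881) and 0.57 for PFL (adjusted p = 0.0484). The second 542 library of DFL and that of PFL fell within the FB range at this internal start. The directions at these Smad1 and Bmpr1b starts were the same with median centring and without normalisation.

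Other receptor, Smad and Id starts differed by less than 1 on the log2 scale. The start of Tgfbr2 (chr9:116174388-116176048) had folds of 9.81, 8.3, 7.74 and 7.22 in DFL, 10.5, 9.07, 11.2 and 10.2 in PFL, against 5.97, 5.96, 6.96 and 5.54 in FB, a PFL minus FB difference of 0.88 (limma adjusted p = 9.57e-05), and no limb library overlapped FB. The start of Id2 (chr12:25095914-25096566) had 4.98, 5.94, 5.22 and 5.66 in DFL, 6.82, 6.15, 6.23 and 6.34 in PFL, against 10.3, 9.04, 8.85 and 10.4 in FB, a DFL minus FB difference of -0.73 (SE 0.13, limma adjusted p = 0.000769). The start of Smad2 was higher in DFL than in FB by 0.44 (limma adjusted p = 0.000777), with folds of 12.3, 13.9, 11.8 and 13.7 against 11.6, 10, 10.3 and 10.3. Of the ligand starts, Bmp5 was higher in DFL than in FB by 0.64 (limma adjusted p = 0.00239), with folds of 6.2, 5.08, 6.82 and 6.61 against 3.39, 3.12, 4.43 and 4.46, and Bmp7 by 0.42 (adjusted p = 0.0146), with 7.44, 7.95, 7.32 and 7.66 against 5.07, 4.97, 7.23 and 6.62. Of 16 ligand starts 2 were higher and 2 lower in DFL than in FB, and 4 higher and 0 lower in PFL than in FB. The starts of Bmp4 and Id1 were lower in DFL than in FB by fold, at -0.40 and -0.38, and these directions were not kept when −log10 q was used in place of fold.

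Between genotypes, no member region passed the test within a tissue. Of the 179 tested regions 0 differed in DFL, where 0.0425% of all regions were higher in 542 and 0.0495% lower by limma with adjusted p under 0.05. Likewise 0 differed in PFL (0.0425% and 0.0708%) and 0 in FB (0.0248% and 0.0248%), while 15, 21 and 13 member regions had an unadjusted p under 0.05, which is 8.38%, 11.7% and 7.26% of those tested against 12.0%, 11.7% and 5.57% of all regions. The interaction of genotype and limb segment passed at 0 of the 28265 regions, and 5 member regions had an unadjusted p under 0.05 (2.79% against 8.14% of all regions). The median standard error of a member region was 0.187 on the log2 scale for genotype within a tissue and 0.265 for the interaction, against 0.133 for a tissue contrast, so smaller differences were detectable between tissues than between genotypes. Averaged over tissues, 1 member region was lower in 542 (0.283% of all regions were lower and 0.269% higher). It lay upstream of Bmpr1a (chr14:34508196-34509336, -5217 bp), although the nearest coding gene was 9230112D13Rik. Its folds were 9.03, 7.34, 4.82 and 5.78 in DFL, 9, 9.76, 5.46 and 3.59 in PFL, against 8.28, 8.82, 6.93 and 6.03 in FB. Both 542 libraries lay below both wild-type libraries in each tissue, and the averaged difference was -0.65 (SE 0.13, limma adjusted p = 0.0394), a call that was lost without any one of 11 of the 12 libraries.

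Counting a region as present in a genotype only when both its libraries held it among their strongest, and as absent from the other when neither did, 17 member regions were wild-type only in DFL (2.55% of consensus regions) and 6 were 542 only (2.07%). In PFL the counts were 17 (2.68%) and 6 (2.14%), and in FB 7 (1.66%) and 7 (1.57%). Wild-type only in 2 tissues were 2 member regions (0.27%), in DFL and PFL at both, and 0 in all 3 (0.0126%), while 0 were 542 only in 2 tissues (0.145%) or in 3 (0.0153%). One of them, beyond Smad2 (chr18:76354669-76355372), had folds of 5.42, 7.88, 2.95 and 3.97 in DFL and 6.76, 6.78, 4.36 and 3.79 in PFL. The other, beyond Tgfb2 (chr1:186609690-186610485), had 5.71, 9.63, 4.06 and no region in DFL and 8.31, 5.56, 4.16 and 4.39 in PFL, against 5.25 to 6.33 in FB. At both, the 542 limb libraries kept a weaker region except in 1 case.

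The strongest 542-only regions were at Bmper, Bmp7 and Bmpr1b. An intron of Bmper in PFL (chr9:23463041-23463777) had no region and 3.77 in wild type against 8.12 and 5.59. A region upstream of Bmp7 in FB (chr2:172958442-172958974) had no region and 4.4 against 6.03 and 7.25. A region near Bmpr1b in DFL, in an intron of Unc5c (chr3:141818963-141820086), had 4.1 and 3.85 against 8.66 and 4.91. The tags behind these comparisons moved with genotype in the limb, at 44 to 54.5 M in wild-type DFL against 40.2 to 41.4 M in 542 DFL and 48.8 to 52.7 against 37.5 to 37.9 M in PFL, while FB overlapped at 56.6 to 70.7 and 51.4 to 64.5 M. The part of depth in the presence counts was not tested. Because 542 reads were aligned to a genome carrying the insertion, the allele and the genome used cannot be told apart. Bmp2, Bmp7, Gdf5 and Id1 lie beyond the insertion on chromosome 2. After the shift was removed, their median summit offsets between genotypes were 4, 2.5, 0 and -8 bp. Acvr1 and Acvr2a, at -2 and -0.5 bp, lie before it and were not shifted. These offsets check the coordinates only.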

How the data were processed

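ATAC-seq libraries of 50000 cells were aligned by the authors to mm10, or for allele 542 to a genome carrying the insertion, with Bowtie, after trimming with cutadapt, and reads with mapping quality of at least 30 were kept after duplicates were removed with Picard. Regions were called by the authors in each library separately, with no control and no pooling, using MACS2. In the deposited lists the fold enrichment is the tags at the summit plus 1 over the local background plus 1 within that library. The −log10 p and −log10 q values came from the same peak calling by the authors, and the deposited lists begin at a −log10 q of 1.3. The score column, as deposited, repeats the −log10 q on another scale and was not analysed separately. Nothing had been normalised between libraries by the authors, so no value compares absolute accessibility.

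In the 542 lists, 4218 was subtracted from chromosome 2 positions above 75273815. Regions within 50 kb of a member were assigned to the nearest member with GENCODE M21. The members and lists were chosen with earlier results of these data known. The regions named were, per class, the 5 with the highest mean fold, and per contrast and direction the 3 with the largest difference among those passing. The genes named were, per tissue pair and direction, up to 5 with the largest difference of mean counts, and any others are marked in the text as chosen after their values were seen. Depth was estimated from the most common local background, and tags recovered from fold and p were whole within 0.001 for 98.95% to 100% of member regions, with library medians of 30 to 52 tags. These are counting limits only. The limma p-values rest on the spread between embryo pools within groups, moderated over all regions. The exact permutation test rests on assigning the libraries of both genotypes to tissues, and its p cannot fall below 0.0286. Statistics used limma 3.58.1 in R 4.3.3, with 6 group means and a trended prior, and Python 3.11.15 with scipy 1.17.1, and were tested on simulated data. Alternatives were the list length, threshold, window, scaling, pseudocount, filter, strength measure, replicate block, wild type alone, the earlier library and each library left out. Windows of 500 bp at summits were added after the data were seen.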

Additional observations from a re-analysis of the deposited data

Results flagged for a closer look

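Of 83 groups of 4 libraries tested for a value far from the rest, 2 stood out, by Dixon's 95% criterion, and chance alone flags about 1 in 20 such groups. At the DFL-only Tgfb2 region (chr1:186585664-186586110) the fold enrichment of the second 542 DFL library was 8.8743, against 7.23, 7.18 and 7.01 in the other 3. At the Unc5c intron near Bmpr1b (chr3:141811127-141811762) the fold of the second wild-type DFL library was 15.058, against 8.35, 7.74 and 8.87 in the others, and without that library the limb to forebrain differences there kept their direction.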

How the results depend on the processing

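Depth limits the weaker regions, since member regions had a median of only 30 to 52 tags per library, and a region not called is not a closed site. Apart from leaving out libraries, 125 of 185 recomputed counts stayed within 1.5 times the reported count, and 342 of 381 recomputed differences of named regions kept their direction and side of the threshold, 37 kept only the direction and 2 reversed. Both reversals came with −log10 q in place of fold, where the DFL minus FB difference became 0.86 at the Id1 start and 0.17 at the Bmp4 start. The cause of these and of the changes below was not tested, except where fewer regions or libraries entered by construction.

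With the 20000 strongest regions per library there were 1 DFL-only, 4 PFL-only, 13 FB-only, 16 limb-only and 70 all-tissue member regions. A −log10 q of at least 10 gave 9 PFL-only regions and a fold of at least 5 gave 5. Absence over all deposited regions left 3 DFL-only, 1 PFL-only, 13 FB-only and 20 limb-only, wild type alone gave 25, 27, 48 and 52, and a window of 100 kb gave 53 limb-only. Requiring the summit inside and most of the region overlapped changed nothing by construction. For the settings of this paragraph, shares over all consensus regions were not computed.

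Members with more regions in DFL than in PFL numbered 2, and the reverse 3, with the 20000 strongest regions. With all deposited regions these were 1 and 1, and FB exceeded DFL at 2 and PFL at 1. None of these was a gene called above, and they are named with their values in view. DFL was over PFL at Id1 and PFL over DFL at Bmp6, while Gdf6, Gdf10, Gdf11 and Id2 overlapped. FB was over both limb parts at Bmp8b, and over DFL at Acvr2a. All members whose counts were called higher in FB above then overlapped the limb. Gdf5 also overlapped FB in both limb parts, and Bmp5 in PFL. A window of 20 kb gave 2 with FB over DFL and 1 with FB over PFL. A window of 100 kb gave 2 with PFL over DFL and 3 with FB over PFL. Wild type alone gave 5 with PFL over DFL, 8 with FB over DFL, 20 with PFL over FB and 15 with FB over PFL. With fewer libraries per tissue, counts separate more easily by construction, so these cannot be set beside the counts from all libraries. For the settings of this paragraph, shares over all genes were not computed.

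In limma, no normalisation gave 8 regions higher in DFL than in PFL, 3 lower, 54 higher in FB than in DFL and 60 higher in FB than in PFL. Between DFL and PFL, DFL and FB, and PFL and FB, 6.86%, 42.8% and 46.9% of all regions were called in either direction. Without the filter on calls, all 543 regions entered, with uncalled values at the library's lowest fold. The counts were then 58 for DFL over PFL, 76 for PFL over DFL, 162 for DFL over FB and 125 for FB over DFL. For PFL over FB the count was 193 and for FB over PFL 129. Of all 110782 regions, 27.2%, 58.6% and 61.6% were called in either direction in these tissue contrasts. Genotype differences were at 15 in DFL, 18 in PFL, 5 in FB and 22 in all tissues together, and 10 for the interaction. For these, 3.34%, 3.41%, 1.02%, 3.88% and 2.73% of all 110782 regions were called. A −log10 q of at least 10 in every library left 1 for PFL over DFL, 13 for DFL over FB, 19 for PFL over FB and 0 for genotype in all tissues. Of all regions tested in that setting, 3.25%, 25.9%, 27.2% and 0.559% were called in either direction. With −log10 q in place of fold the counts were 11 for DFL over PFL, 11 for PFL over DFL and 43 for DFL over FB. In either direction, 13.1% of all regions were called between DFL and PFL and 42% between DFL and FB. By genotype, 2, 2, 1 and 4 member regions differed in DFL, PFL, FB and all tissues, against 1.29%, 0.63%, 0.269% and 2.4% of all regions. Wild type alone gave 2 for DFL over PFL, 0 for PFL over DFL and 17 for FB over DFL. Of all regions tested in wild type, 2.16% were called in either direction between DFL and PFL and 23.1% between DFL and FB.

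Same-numbered replicates did not deviate together, with correlations of -0.0353 to 0.0160. The correlations were taken over the 28265 regions called in all 12 libraries. Counting noise can keep such correlations small, and its part was not tested. Whether the numbers pair the samples therefore cannot be told. With the replicate block the counts were 4 and 4 between DFL and PFL, 28 and 25 between DFL and FB, and 33 and 27 between PFL and FB. Of all regions, 7.28%, 31.5% and 32.7% were called in either direction. For genotype in all tissues the count was 0, against 0.417% of all regions, and the limma adjusted p of the Bmpr1a region was 0.0516.

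Leaving out each library in turn, the class counts were 12 to 15 DFL-only, 16 to 21 PFL-only, 29 to 32 FB-only, 34 to 37 limb-only and 123 to 128 in all tissues, and they can only rise by construction. Members with more regions numbered 4 to 7 for DFL over PFL, 0 to 2 for PFL over DFL, 13 to 16 for DFL over FB, 4 to 6 for FB over DFL, 12 to 15 for PFL over FB and 5 to 8 for FB over PFL. These counts too can only rise by construction, and shares over all genes were not computed for them. In limma the ranges were 2 to 6 for DFL over PFL, 2 to 6 for PFL over DFL, 25 to 31 for DFL over FB, 19 to 29 for FB over DFL, 26 to 35 for PFL over FB, 19 to 31 for FB over PFL, and for genotype 0 to 0 in DFL, 0 to 1 in PFL, 0 to 0 in FB and 0 to 1 in all tissues, with 0 for the interaction. The lowest DFL over PFL count, 2, came without wild-type PFL replicate 1, and the lowest FB over PFL count, 19, without wild-type FB replicate 1. The PFL over DFL count fell to 2 or 3 without any one of 8 libraries, both wild-type and both 542 DFL libraries, both wild-type PFL libraries, 542 PFL replicate 2 and wild-type FB replicate 1. Without wild-type DFL replicate 2 the DFL over PFL gene count was 7, and without 542 PFL replicate 1 the FB over PFL gene count was 8 and 1 region differed by genotype in PFL. The PFL over DFL gene count left 0 without 542 DFL replicate 2, wild-type PFL replicate 1 or either 542 PFL library.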
